A study of Mus musculus with 6 samples.

Results

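Immediate early genes are the genes a cell transcribes first after a stimulus, from factors already present and without new protein synthesis. The 10 followed here are the 4 FOS genes (Fos, Fosb, Fosl1 and Fosl2), the 3 JUN genes (Jun, Junb and Jund), the zinc finger factor Egr1, and the early response genes Ier2 and Ier3. They were picked by symbol in the mouse annotation, and all 10 were present among the 35968 genes with a transcript in the data and passed the filter on low counts that left 13221 genes. The 6 libraries were 3 of MS-5, a mouse bone marrow stromal line, cultured alone (MS-5 only: MO1, MO2 and MO3) and 3 of MS-5 after 24 hr with SKM-1, a human line of acute myeloid leukaemia (co-culture: MC1, MC2 and MC3). In co-culture, AML cells were added at a density of 750000 per ml to a confluent stromal layer, which gave 4 of them for each MS-5 cell, and both groups grew in the same serum-containing RPMI medium. For co-culture the methods describe collecting the AML cells, a PBS wash, a mild trypsin step to take off attached leukaemic cells, and full detachment of the stromal cells with trypsin before RNA was extracted. The comparison asks how the stromal transcriptome differs after contact with AML cells. The labels do not say whether replicates were separate cultures, so that p-values measure the spread between these libraries, which may be technical, and all of them come from 1 cell line.

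FOS and JUN proteins carry a basic leucine zipper. A JUN protein can pair with itself or with a FOS protein, a FOS protein needs a JUN partner, and the pairs form AP-1, which binds the palindrome TGANTCA. Growth factors, serum and stress raise Fos and Egr1 through the MAP kinases ERK, JNK and p38, which act on SRF with its ELK cofactors and on CREB. Their transcripts carry destabilising elements and are lost again quickly, in part through ZFP36, while DUSP phosphatases switch the kinases off. Ier3 and Ier2 are induced by the same signals. IER3 is known as a regulator of survival and ERK signalling and is not a classical DNA-binding factor, so that the name transcription factor is loose for it. In fibroblasts and stromal cells AP-1 controls proliferation, matrix-degrading enzymes and cytokines.

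Total estimated counts ran from 23978881 to 27182453 in MS-5 only and from 26258451 to 35694987 in co-culture. Libraries MO2 and MC3 stood apart from the other 4 on the second principal component, which held 25.6% of the variance and gave -55.8 and -51.9 for them against 23.4 to 33.0 for the others. With the 10 members left out, this component held 25.5% and gave -55.7 and -51.7 against 23.3 to 33.0. MO2 and MC3 also had more transcripts with a count (65170 and 66456 against 51533 to 57350) and a smaller share of mitochondrial counts (6.03% and 5.89% against 10.5% to 13.1%). The labels and methods name no batch for them. Most members followed this split (all but Fosl1, Fosl2 and Jund), so their results are also given without these libraries. Of 20 leukocyte markers listed, 16 were tested, and 13 of these had a positive log2 fold change in co-culture. In all, 7 were called higher (3.71% of all genes were) and 0 lower. The summed level of the 20 was 90.8 to 109 CPM in MS-5 only and 148, 442 and 145 CPM in MC1, MC2 and MC3. Irf8 was at 0 in all MS-5 only libraries. The 16 stromal markers listed, of which 15 were tested, summed to 13399 to 17744 CPM in every library, although Nt5e, the one not tested, had 0 to 3 counts and Lepr 0 to 20. CPM is a gene's count scaled to the same library total in all libraries, after TMM factors that correct for library composition.

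All 10 members had a positive log2 fold change in co-culture over MS-5 only, with a median of 1.16, where 47.5% of all genes tested were positive and the median was -0.02. The spread between libraries was large for most of them, and 1 of the 10, Jund, was called higher at an adjusted p under 0.1 by edgeR's quasi-likelihood test. No member was called lower. Of all genes tested 3.71% were called higher and 0.666% lower (4.38% in either direction). At an unadjusted p under 0.05 there were 3 members (Jund, Fosb and Ier3), where 14.3% of all genes passed. In the same 3 genes the lowest co-culture library lay above the highest MS-5 only library, as in 11.6% of all genes, and no member had the opposite order, which 9.6% of all genes had. In bulk RNA, fewer cells with a transcript and less RNA per cell cannot be told apart.

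**Figure D1:**
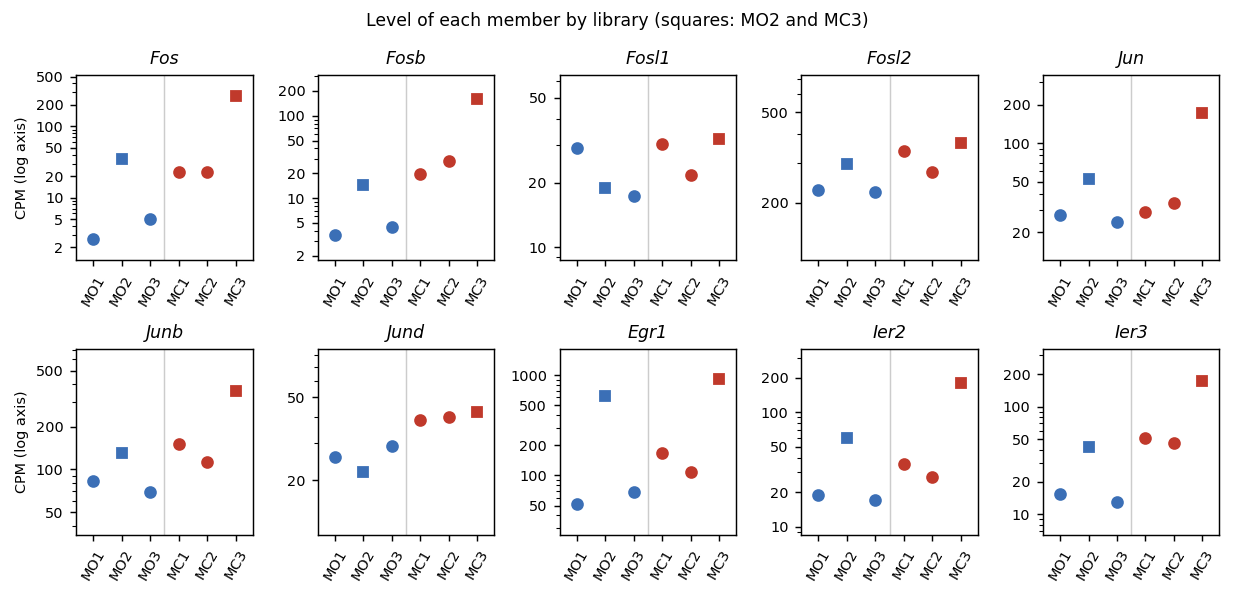
Each panel plots 1 gene, with the library on the x axis and its level in CPM on a log y axis; blue points are MS-5 only, red points co-culture, and squares are MO2 and MC3. In each panel MC3 is the highest of the 6 libraries, and Fosb, Jund and Ier3 are the panels in which no blue point reaches a red one.

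Of the FOS genes, Fos and Fosb are the fast-induced members whose proteins carry transactivation domains. Fos, on chromosome 12 (GRCm38, 85473890 to 85477273, plus strand), was at 2.63, 34.2 and 4.99 CPM in MO1, MO2 and MO3 and at 23.1, 22.6 and 267 CPM in MC1, MC2 and MC3. These are 66, 1076 and 110 counts against 757, 543 and 9179. MC3 was far above all others, and MO2 was above MC1 and MC2, so that the groups overlapped. The log2 fold change was 2.89 (SE 1.37, adjusted p = 0.417), and it was 0.70 without MC3 and 4.78 without MO2. Fosb, on chromosome 7 (19302696 to 19310051, minus strand), was at 3.51, 14.4 and 4.40 CPM in MS-5 only and at 19.7, 28.3 and 158 CPM in co-culture. MO2 was again the highest MS-5 only library, but it lay under all 3 co-culture libraries. The log2 fold change of Fosb was 3.20 (SE 0.98, unadjusted p = 0.0152, adjusted p = 0.188). It was the highest estimate of the 10 in the fit of all libraries. It was 1.69 without MC3 and 4.12 without MO2, and in the latter fit Fos was above it.

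Fosl1 and Fosl2 encode FRA-1 and FRA-2, the slower FOS proteins that lack a strong transactivation domain. Fosl1, on chromosome 19 (5447547 to 5455946, plus strand), was at 29.1, 19.0 and 17.4 CPM in MS-5 only and at 30.4, 21.8 and 32.1 CPM in co-culture, with overlapping groups. Its log2 fold change was 0.36 (SE 0.25, adjusted p = 0.621), and it was 0.64 without MO1 and 0.22 without MO3. Fosl2, on chromosome 5 (32135801 to 32157842, plus strand), was at 227, 295 and 224 CPM in MS-5 only and at 338, 272 and 366 CPM in co-culture. MC2 was below MO2, and the other co-culture libraries were above every MS-5 only library. Its log2 fold change was 0.39 (SE 0.19, adjusted p = 0.442).

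The bases before the start sites of Fos, Fosb, Junb and Ier3, which all had MO2 and MC3 as the highest libraries of their groups, are shown for the elements they hold. Sequences are from RefSeq (GRCm38.p6), each 250 bases ending at the base before the RefSeq transcription start, which differs by some bases from the gene bounds above for Fosb, Junb and Ier3. Capitals mark TGACG on either strand, the half-site that CREB and ATF proteins bind, TGANTCA on either strand, and TATAA on the gene's strand. The windows are chr12:85473640-85473889 (plus strand) for Fos, chr7:19310046-19310295 (minus) for Fosb, chr8:84978749-84978998 (minus) for Junb and chr17:35821463-35821712 (plus) for Ier3.
Fos: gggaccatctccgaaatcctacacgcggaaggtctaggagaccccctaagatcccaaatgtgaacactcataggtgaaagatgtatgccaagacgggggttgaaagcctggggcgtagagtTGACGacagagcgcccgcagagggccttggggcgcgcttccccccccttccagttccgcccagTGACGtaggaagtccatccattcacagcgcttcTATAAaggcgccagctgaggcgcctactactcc
Fosb: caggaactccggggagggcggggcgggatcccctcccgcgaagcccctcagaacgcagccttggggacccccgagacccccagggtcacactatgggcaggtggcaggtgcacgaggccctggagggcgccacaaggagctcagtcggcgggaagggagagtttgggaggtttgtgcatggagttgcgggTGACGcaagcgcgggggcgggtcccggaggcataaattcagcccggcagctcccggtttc
Junb: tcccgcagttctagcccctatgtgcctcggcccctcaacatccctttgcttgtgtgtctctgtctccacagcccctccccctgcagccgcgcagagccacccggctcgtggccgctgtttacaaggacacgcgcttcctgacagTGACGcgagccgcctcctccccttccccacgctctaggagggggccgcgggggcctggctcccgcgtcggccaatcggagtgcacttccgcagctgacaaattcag
Ier3: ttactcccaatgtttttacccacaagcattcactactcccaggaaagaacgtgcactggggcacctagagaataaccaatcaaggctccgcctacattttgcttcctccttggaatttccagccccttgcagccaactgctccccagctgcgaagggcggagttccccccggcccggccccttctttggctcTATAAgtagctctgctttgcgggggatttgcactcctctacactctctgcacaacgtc
Fos, Fosb and Junb each hold TGACG, and Fos and Ier3 hold TATAA close to the start. A window was given for 7 of the 10 members (none for Egr1, Ier2 and Fosl1). TGACG was in 3 of these 7 and in 17.8% of 32851 promoter windows of the same length, and TATAA was in 2 of 7 and in 16.0%. The EGR1 motif GCGNGGGCG was found in Fosl2 and Fosb and in 4.70% of all windows. TGANTCA was in 6.75% of all windows and the CArG box, the SRF motif, in 1.47%, and neither was in the 7. Only these 250 bases were searched, so a site further upstream would be missed, and Egr1 had no window. TGANTCA and TGACG can share letters but were counted separately. A match is a description of letters, and no factor's binding was measured.

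Among the JUN genes, Jun encodes the strongest activator of AP-1, Junb a partner that can also restrain JUN, and Jund the member that cells express most steadily. Jund, on chromosome 8 (70698949 to 70700616, plus strand), was at 25.8, 22 and 29.0 CPM in MS-5 only and at 38.9, 40.3 and 42.6 CPM in co-culture. The co-culture libraries lay close together and above all MS-5 only libraries, and MO2 was the lowest of its group. The group levels were 25.6 ± 3.53 CPM and 40.6 ± 1.87 CPM (SD, n = 3 each). Jund rose by 0.67 on the log2 scale (SE 0.15, adjusted p = 0.0875, edgeR). This call did not hold when any 1 library was left out (adjusted p from 0.148 to 0.304), although the log2 fold change stayed between 0.57 and 0.77. In the 3 fits without an MS-5 only library, 0 genes of all tested were called. MC2, the library with the most leukocyte marker RNA, lay between MC1 and MC3 for Jund, but the part of SKM-1 RNA in the difference was not tested.

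Jun, on chromosome 4 (95049034 to 95052222, minus strand), was at 27.1, 52.3 and 24.1 CPM in MS-5 only and at 29.1, 33.9 and 173 CPM in co-culture. MC3 was high, and MC1 and MC2 were below MO2. Its log2 fold change was 1.19 (SE 0.74, adjusted p = 0.564), and without MC3 it was -0.13 (adjusted p = 0.922). Junb, also on chromosome 8 (84974484 to 84978718, minus strand), was at 83.2, 132 and 69.3 CPM in MS-5 only and at 152, 113 and 356 CPM in co-culture. Only MC2 lay below MO2, and the groups overlapped through that pair. Its log2 fold change was 1.13 (SE 0.47, adjusted p = 0.354), and without MC3 it was 0.48.

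Egr1, on chromosome 18, encodes an SRF-controlled zinc finger activator and is induced together with Fos in many cells. It was at 51.4, 617 and 69 CPM in MS-5 only and at 169, 109 and 918 CPM in co-culture, or 1287, 19400 and 1522 counts against 5536, 2618 and 31539. MO2 was above MC1 and MC2 by several fold, which left the groups overlapping. The log2 fold change was 0.70 (SE 1.18, adjusted p = 0.902), and without MC3 it was -0.83 (adjusted p = 0.832).

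Ier2, an early response gene of 1 exon on chromosome 8 (84661331 to 84662852, minus strand), was at 18.8, 59.0 and 17.1 CPM in MS-5 only and at 35.5, 27.1 and 179 CPM in co-culture. Its groups overlapped through MO2, its log2 fold change was 1.35 (SE 0.85, adjusted p = 0.569), and without MC3 it was -0.02 (adjusted p = 0.994). Ier3, on chromosome 17 (35821684 to 35822923, plus strand), was at 15.5, 41.9 and 13.0 CPM in MS-5 only and at 50.8, 45.7 and 173 CPM in co-culture. All co-culture libraries lay above all MS-5 only libraries, MC2 by a small margin over MO2. The log2 fold change of Ier3 was 1.93 (SE 0.69, unadjusted p = 0.0276, adjusted p = 0.258), and it was 1.04 without MC3 and 2.65 without MO2.

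The split between libraries was read within each group and across it. MO2 over the mean of MO1 and MO3 was 10.3-fold for Egr1, 8.99-fold for Fos, 3.63-fold for Fosb, 3.29-fold for Ier2 and 2.94-fold for Ier3. It was 2.04-fold for Jun, 1.72-fold for Junb, 1.31-fold for Fosl2, 0.817-fold for Fosl1 and 0.802-fold for Jund. MC3 over the mean of MC1 and MC2 was 11.7-fold for Fos, 6.61-fold for Egr1, 6.59-fold for Fosb, 5.72-fold for Ier2, 5.48-fold for Jun, 3.58-fold for Ier3 and 2.69-fold for Junb. The other 3 members lay between 1.08-fold (Jund) and 1.23-fold (Fosl1) there. Thus among the members Fos, Egr1, Fosb, Ier2, Jun, Ier3 and Junb differed most along the split, and Fosl1, Fosl2 and Jund little. The median of the members was 2.49-fold in MO2 and 4.53-fold in MC3, and that of all genes was 0.997 and 0.947. In 8 of the 10 members (all but Fosl1 and Jund) MO2 and MC3 were each the highest of their group, which 33% of all genes shared. Fos ranked 18 of 13221 genes by the size of its loading on the second component and Egr1 ranked 38, whereas Fosl2, Jund and Fosl1 ranked 7497, 11584 and 13023.

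**Figure D2:**
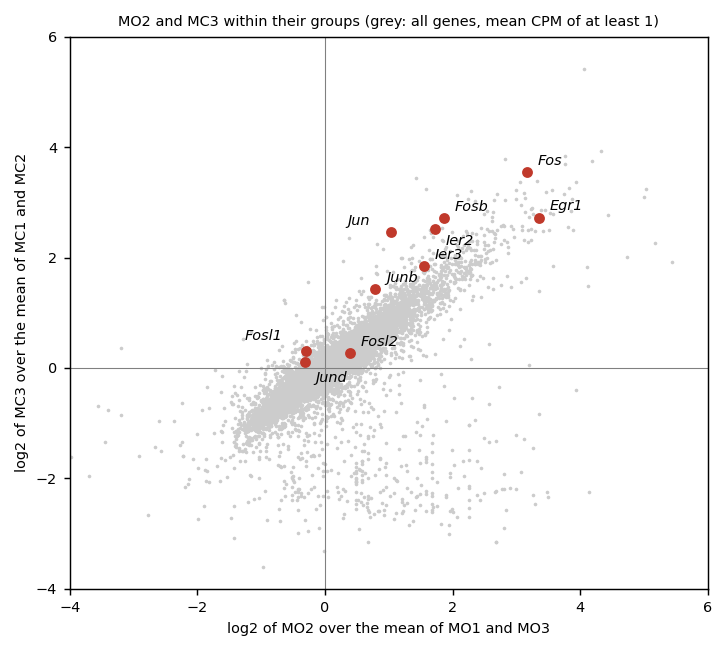
Each point is a gene, with the log2 ratio of MO2 to the mean of MO1 and MO3 on the x axis and of MC3 to the mean of MC1 and MC2 on the y axis; grey points are the 11882 genes with a mean of at least 1 CPM and ratios that are finite and above 0 (3 with a ratio past 64 can lie outside the axes) and red points are the members. Fos and Egr1 lie far to the upper right, and Jund, Fosl1 and Fosl2 lie near the centre.

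Across the groups, co-culture was higher on both sides of the split for nearly all members. MC1 and MC2 were both above MO1 and MO3 in 9 members (all but Fosl1), an order held by 29.3% of all genes, and MC3 was above MO2 in 10, as in 44.1%. Both orders held in the same 9 members and in 24.5% of all genes. MC3 over MO2 was 11.0-fold for Fosb, 7.80-fold for Fos, 4.12-fold for Ier3, 3.30-fold for Jun and 3.03-fold for Ier2. It was 2.71-fold for Junb, 1.94-fold for Jund, 1.69-fold for Fosl1, 1.49-fold for Egr1 and 1.24-fold for Fosl2. Egr1, which had the largest ratio of MO2 to the other MS-5 only libraries, came next to last here. The mean of MC1 and MC2 over that of MO1 and MO3 was 6.07-fold for Fosb, 5.99-fold for Fos, 3.39-fold for Ier3 and 2.31-fold for Egr1. The other members ranged from 1.12-fold (Fosl1) to 1.74-fold (Ier2), with Jun at 1.23-fold. MC2 over MC1 was 0.644-fold to 1.44-fold for the members and 2.99-fold for the leukocyte marker sum. The part of SKM-1 RNA in the levels of the members was not tested.

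With a term for MO2 and MC3 in the edgeR fit, 8 of the 10 members were called higher in co-culture, where 13.9% of all genes were called higher and 16.4% lower. The term was set from where these libraries lay in the expression data, and no label names such a batch. It takes up the spread that MO2 and MC3 give the members, so the smaller standard errors and adjusted p-values follow in part from that choice. Fos gave a log2 fold change of 2.75 (SE 0.20, adjusted p = 0.00729), Fosb of 2.95 (SE 0.24, adjusted p = 0.00866) and Ier3 of 1.86 (SE 0.11, adjusted p = 0.00729). Junb, Ier2, Egr1, Jund and Fosl2 were the other 5, at 1.01, 1.09, 0.99, 0.67 and 0.39 with adjusted p from 0.0164 to 0.0384. The 2 members not called were Jun at 0.79 (SE 0.29, adjusted p = 0.109) and Fosl1 at 0.36 (SE 0.24, adjusted p = 0.33). With the term the estimate of Jun was lower (1.19 without it) and that of Egr1 higher (0.70 without it), and the standard errors of Fos, Fosb, Egr1, Ier2 and Ier3 were several times smaller. The term itself was 3.39 for Fos, 3.05 for Egr1, 2.37 for Fosb, 2.14 for Ier2, 1.81 for Jun and -0.10 for Jund, on the log2 scale.

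With MO2 and MC3 left out, a fit chosen after the values were seen, 2 libraries of each group were left and 7 of the 10 members were called higher, where 7.92% of all genes were called higher and 4.6% lower. Fos was at 2.61 (SE 0.31, adjusted p = 0.075), Fosb at 2.62 (SE 0.24, adjusted p = 0.075), Ier3 at 1.78 (SE 0.14, adjusted p = 0.075) and Egr1 at 1.23 (SE 0.26, adjusted p = 0.0782). Junb, Ier2 and Jund were called at 0.82, 0.82 and 0.55. The 3 not called were Fosl2 at 0.45 (adjusted p = 0.116), Jun at 0.31 (adjusted p = 0.216) and Fosl1 at 0.18 (adjusted p = 0.736). Whether the leukocyte marker RNA of MC1 and MC2 has a part in these calls was not tested.

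**Figure D3:**
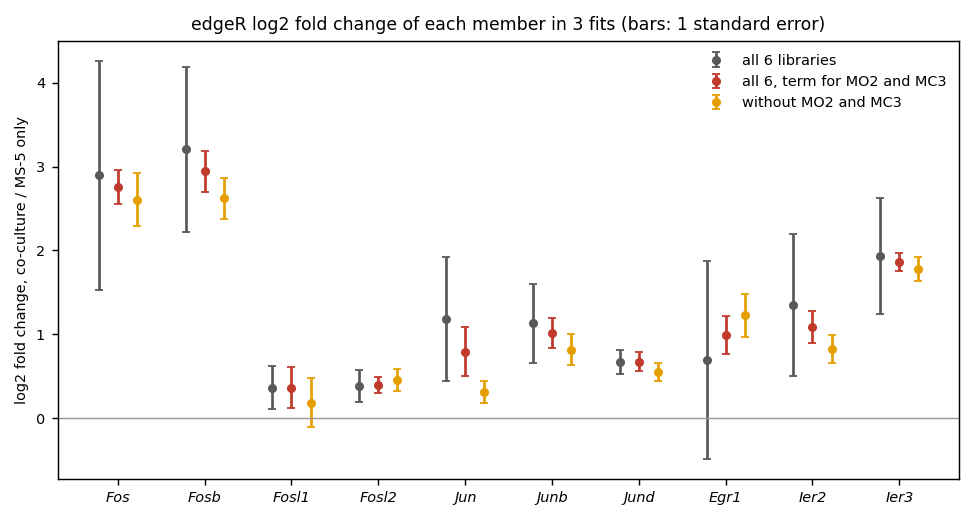
The y axis gives the edgeR log2 fold change of co-culture over MS-5 only for each gene on the x axis, with bars of 1 standard error; grey is the fit of all 6 libraries, red the same with a term for MO2 and MC3, and yellow the fit without those libraries. Every estimate is above 0, Fos and Fosb are the highest in all 3 fits, and the bars of Fos, Fosb and Egr1 are widest in the fit of 6 libraries with no term.

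TPM, which divides by transcript length, allowed levels to be compared between genes within a library. Junb had the highest TPM of the members in MO1, MO3, MC1 and MC2 (54.8, 44.5, 101 and 71.1), and Egr1 had the highest in MO2 and MC3 (343 and 510). Fosb was the lowest in every library but MC3, at 1.05 to 8.32 TPM. In the FOS family the share of Fos and Fosb together was 4.91%, 30.2% and 9.84% of the summed TPM in MO1, MO2 and MO3 and 21.9%, 29.0% and 71.4% in MC1, MC2 and MC3. Fosl2 held most of the family in all libraries but MC3, from 51.8% to 68.5%, and 20.0% in MC3. MC3 thus stood apart from all the others, and the groups overlapped, with MO2 above MC1 and MC2. This share was not tested. In the JUN family Junb held the most, at 60.8% to 72.3% in all 6 libraries. Jun took 11.6%, 15.3% and 11.4% in MS-5 only, against 7.45%, 10.4% and 18.8% in co-culture. Jund took 22.4%, 13.1% and 27.9% against 20.2%, 25.2% and 9.40%, lowest in MO2 and MC3. The summed TPM of the FOS genes was 66.0, 153 and 55.0 in MS-5 only, against 106, 88.3 and 516 in co-culture, and that of the JUN genes was 83.1, 188 and 73.2 against 140, 110 and 510.

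**Figure D4:**
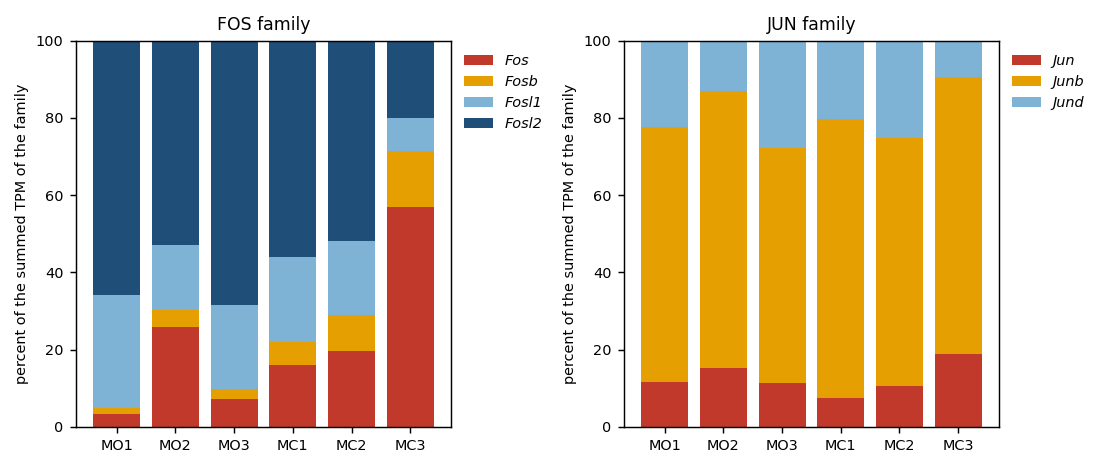
Stacked bars give, for each library on the x axis, the percent of the summed TPM of the FOS family (left) and the JUN family (right) that each gene held. Fosl2 is the tallest part of the FOS bars except in MC3, where Fos held 56.9%, and Junb is the tallest part of every JUN bar.

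Jun, Jund, Ier2 and Ier3 have 1 transcript each in the data, and Junb drew all its counts from 1 of its transcripts. Fos-201, which encodes the full protein of 380 codons, held 78.3% to 87.8% of the counts of Fos. Fosb differed, since its counts were shared among forms. Fosb-201, of 338 codons, held 69.4%, 22.9% and 59.1% in MS-5 only, against 46.0%, 12.9% and 42.0% in co-culture, and Fosb-205, of 299 codons, held 0%, 35.1% and 0% against 13.3%, 47.3% and 14.2%. Neither form separated the groups, and with kallisto such overlapping forms are estimates from shared reads. A Fosb form annotated as a retained intron held 30.6% to 42.4% in all libraries. For Fosl1 the retained intron form held 7.22% in MO2 and 7.07% in MC3, against 0.931% to 2.14% in the other 4 libraries, from 43.1 and 78.0 estimated counts in MO2 and MC3.

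Across the 6 libraries the 45 pairs of members had Pearson correlations of log2 CPM from 0.149 (Jund with Egr1) to 0.983 (Fosb with Ier3), with a median of 0.858. These are descriptions over 6 points that share the split of MO2 and MC3. The genes most like Fos among the 11982 others with a mean of at least 1 CPM were Unc13a, Rlf, Chrd, Arhgap42 and Zfp219 (0.998 to 0.994). Those most like Jun were S100pbp, Arc, Ppp1r15a, Klf2 and Cfap100 (0.988 to 0.969), and those most like Egr1 were Clcn2, Egfr, Vmn2r97, Golga3 and Zfp865 (0.997 to 0.996).

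The other immediate early genes, a list of 29 of which 27 were tested, all had a positive log2 fold change, with a median of 0.64. Of the 27, 2 were called higher (3.71% of all genes were) and 0 lower. Maff, a small MAF protein that lacks a transactivation domain, was at 305, 384 and 270 counts in MS-5 only, against 800, 591 and 863 in co-culture. In CPM it was at 12.2 in each MS-5 only library and at 24.4, 24.5 and 25.1 in co-culture, so that its groups were far apart and MO2 and MC3 did not stand out. It rose by 1.02 on the log2 scale (SE 0.12, adjusted p = 0.0734). Trib1, a pseudokinase that promotes the breakdown of C/EBP factors, was at 24.3, 30.0 and 30.1 CPM against 48.6, 41.3 and 56.8, and rose by 0.80 (SE 0.17, adjusted p = 0.0865). With any 1 MS-5 only library left out neither was called, with adjusted p from 0.146 to 0.304 for each, and Trib1 was also not called without MC1 (adjusted p = 0.221) or MC3 (adjusted p = 0.155). With the term for MO2 and MC3, 18 of the 27 were called higher and 0 lower, where 13.9% of all genes were called higher and 16.4% lower. Without these libraries 11 of the 27 were called higher (7.92% of all genes were), Maff and Trib1 among them (adjusted p = 0.075 and 0.0782). Members of this list that repeat the pattern of Fos, named after their values were seen, include the nuclear receptor Nr4a1 at 89, 878 and 200 counts against 555, 534 and 3015. Zfp36, whose protein promotes the decay of such short-lived transcripts, was at 373, 1801 and 384 counts against 1102, 812 and 6686, and Btg2, an antiproliferative gene, was at 130, 928 and 149 against 555, 714 and 4338. In these genes, too, MO2 and MC3 were the highest of their groups. The list as a whole followed the split less than the members did. On the log2 scale the term for MO2 and MC3 had a median of 0.41 in the 27, against 1.76 in the members.

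**Figure D5:**
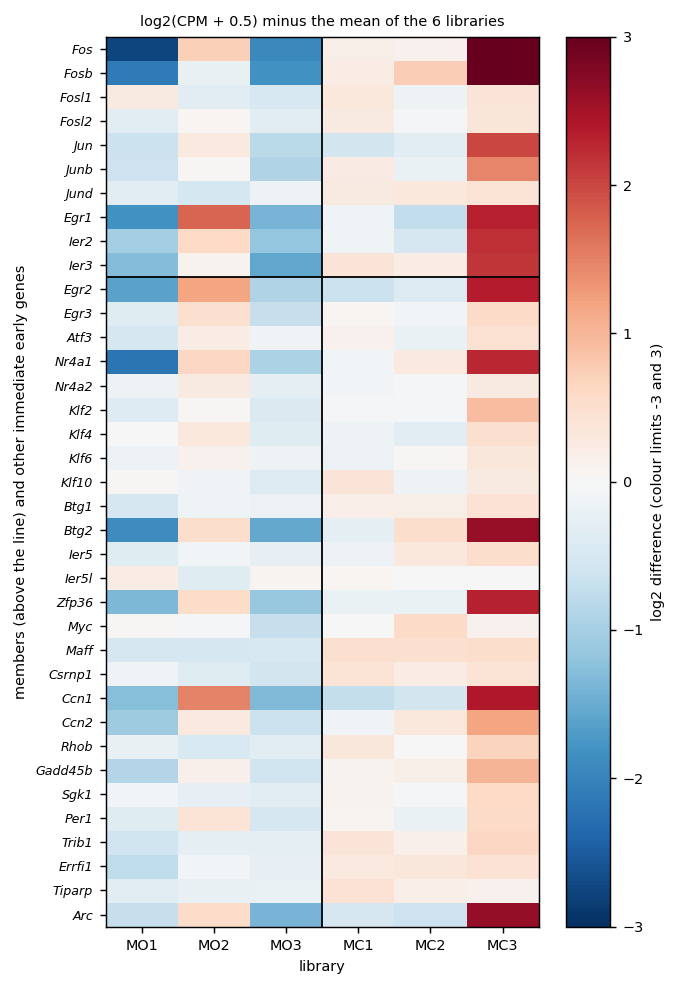
Rows are the 10 members (above the line) and the 27 other immediate early genes tested, columns are the 6 libraries, and colour gives log2(CPM + 0.5) minus the gene's mean over the libraries, with the scale ending at 3 in either direction. Fos, Fosb, Egr1, Ier2, Ier3, Egr2, Nr4a1, Btg2, Zfp36, Ccn1 and Arc are darkest red in MC3 and lowest in MO1 or MO3, whereas Jund and Maff part the groups with little difference within them.

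Of 9 other bZIP genes tested, whose proteins can pair with FOS or JUN, 2 were called higher (3.71% of all genes were) and 0 lower. Of these, Maf had 0, 1 and 2 counts in MS-5 only, against 23, 47 and 23 in co-culture (adjusted p = 0.0775). It is known as a factor of macrophages, it was highest in MC2, the library with the most leukocyte marker RNA, and the part of SKM-1 RNA in it was not tested. Among the 22 kinases and SRF or CREB factors upstream of the members, 1 was called higher and 0 lower, near the 3.71% of all genes called higher. This was Rps6ka1, the ERK-activated kinase RSK1, at 159, 232 and 115 counts against 637, 1718 and 626 (log2 fold change 2.52, SE 0.58, adjusted p = 0.0946). In CPM it was 3.67-fold higher in MC2 than in MC1, and it too has its highest level where the leukocyte markers do. Without MO2 and MC3, 2 of the bZIP genes and 2 of the upstream genes were called higher (7.92% of all genes were) and 0 lower. The adjusted p in this edgeR fit was 0.0865 for Maf and 0.0782 for Rps6ka1. Without MC2 the log2 fold change of Rps6ka1 was 1.57 (adjusted p = 0.0328). Without MC1, Maf and Rps6ka1 were not called (adjusted p = 0.114 and 0.111), and without any 1 MS-5 only library neither Maf nor Rps6ka1 was (adjusted p from 0.148 to 0.322).

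Feedback genes switch the pathway off again. Of 18 tested, 1 was called higher and 0 lower, also near that share. This was Dusp2, a phosphatase of ERK and p38 known from leukocytes, which had 0 counts in all MS-5 only libraries and 14, 41 and 22 in co-culture, at least 24.2-fold higher when set against a floor of 3 counts over the MS-5 only group (adjusted p = 0.087). In CPM it was at 0.427, 1.70 and 0.640 in MC1, MC2 and MC3, highest where the leukocyte markers are, and the part of SKM-1 RNA in it was not tested. It was not called without any 1 MS-5 only library, without MC1 (adjusted p = 0.127) or without MC3 (adjusted p = 0.116). Dusp1, named after its values were seen, is the phosphatase most often induced together with Fos, and its counts were 443, 1845 and 407 against 1226, 859 and 6532. It had a log2 fold change of 1.47 (SE 0.81, adjusted p = 0.503), and with the term for MO2 and MC3 it was called higher at 1.26 (SE 0.15, adjusted p = 0.011). Of the 18, 7 were called higher with that term and 0 lower, where 13.9% of all genes were called higher and 16.4% lower. Without MO2 and MC3, 3 of the 18 were called higher (7.92% of all genes were), with adjusted p = 0.0888 for Dusp2 and 0.075 for Dusp1.

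Among 19 tested genes known as targets of AP-1 or EGR1, 0 were called in either direction, by edgeR's quasi-likelihood test. At an unadjusted p under 0.05 there were 3 (14.3% of all genes were), and DESeq2's Wald test called 2 higher and 0 lower, where it called 6.9% of all genes higher and 2.72% lower. Both counts are near those shares. The 3 included the growth factor chains Pdgfb, at a log2 fold change of 0.63 (SE 0.19, adjusted p = 0.173), and Pdgfa, at 0.66 (SE 0.23, adjusted p = 0.239). Pdgfb was at 5.79, 4.84 and 4.76 CPM in MS-5 only and at 7.23, 8.02 and 8.53 CPM in co-culture, so that its groups did not overlap. With the term for MO2 and MC3, 3 of the 19 were called higher and 1 lower, where 13.9% of all genes were called higher and 16.4% lower. Without these libraries 1 of the 19 was called higher and 1 lower, where 7.92% of all genes were called higher and 4.6% lower.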

How the data were processed

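RNA-seq of 3 MS-5 only and 3 co-culture libraries was used, grouped by the sample labels. The authors made stranded mRNA libraries, quantified reads with kallisto 0.43.0 against a GRCm38 cDNA index (FastQC 0.11.7 for quality, sleuth 0.30.0 for tests) and deposited, per transcript, unnormalized estimated counts, lengths and TPM values, which divide counts by effective length and scale to a common total. Reads of human RNA could be counted where they resemble mouse transcripts.

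Of 118489 transcripts, 116728 matched GENCODE M21 by version and length, and 1761 (0.476% to 0.562% of counts) were left out. For each gene the estimated counts of its transcripts were added and rounded to whole numbers. Genes passing filterByExpr (13221) were tested with edgeR 4.0.16 in R 4.3.3 (TMM factors 0.923 to 1.17, quasi-likelihood F-test, Benjamini-Hochberg over all genes, threshold 0.1). Standard errors are the log2 fold change over the square root of F. Principal components and correlations used log2 CPM with a prior count of 2. The fits were tested on simulated data. Fos and Fosb have 66 to 110 counts in MO1 and MO3, and every other member has more in each library.

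Members and lists were chosen with earlier results of these data known. Named genes are the members, every other listed gene past the threshold or up to 3 with the smallest p, and the 5 genes most like Fos, Jun and Egr1; others are said to be chosen after their values were seen. Alternatives were DESeq2 1.42.0, limma 3.58.1 on log2(TPM + 0.5) with pseudocounts 0.1 and 1, other scalings and filters, a length offset, a replicate block, a term for MO2 and MC3 (apart in the authors' principal component plot), each library left out, a threshold of 0.05 and, added after the values were seen, MO2 and MC3 both left out. Sleuth was not used. Some results are left out of the text.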

Additional observations from a re-analysis of the deposited data

How the results depend on the processing

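All 10 members kept a positive log2 fold change in every alternative except without MC3, where Jun was at -0.13, Egr1 at -0.83 and Ier2 at -0.017. With 1 library left out, Jun ranged from -0.13 to 1.62, Egr1 from -0.83 to 2.73 and Ier2 from -0.017 to 2.17, the upper ends without MO2. The count of members called higher was 1 (Jund) in the main fit, with DESeq2's size factors and with a filter of 5 counts in 3 libraries. It was 0 with library size alone, with limma on log2(TPM + 0.5), log2(TPM + 0.1) and log2(TPM + 1), with the effective length offset, with no filter and at a threshold of 0.05, and 0 to 0 when 1 library was left out. It was 3 in DESeq2's Wald test (Fosb, Ier3 and Jund; the adjusted p of Fos is NA there, and 6.9% of all genes were called higher), 8 with the term for MO2 and MC3 and 7 without both libraries. No member was called lower in any of them. Other pathway genes called higher numbered 6, against 16 in DESeq2's Wald test, 35 with the term, 19 without MO2 and MC3, 0, 2 and 0 with limma at pseudocounts of 0.5, 0.1 and 1, 0 at the threshold of 0.05 and 0 to 6 when 1 library was left out. Those called lower numbered 0, against 5 with the term and 1 without MO2 and MC3. Of all genes, 13.9% were called higher and 16.4% lower with the term, and 7.92% and 4.6% without both libraries. The cause of these changes in the counts of calls was not tested.

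Replicate numbers did not pair the libraries: deviations from the group means correlated at 0.532 between MO1 and MC1, at -0.291 between MO2 and MC2, at -0.516 between MO3 and MC3, and at 0.73 between MO2 and MC3. With the replicate block 0 members and 3 other pathway genes were called higher.

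With 3 libraries a group, the spread between libraries limits these tests, and the effect of depth on the calls was not tested. With any MS-5 only library left out, 0 of 13221 genes were called at all by edgeR, so that those fits say little about single members. Fos and Fosb rest on 66 to 110 counts in MO1 and MO3.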

Other observations

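Heat shock genes, a list of chaperones, had another pattern over the libraries than the members. Of 9 tested, 0 were called in either direction by edgeR's quasi-likelihood test, and 0 had an unadjusted p under 0.05. DESeq2's Wald test called 0 as well. The median log2 fold change was -0.22. Their summed level was 5031, 2755 and 4013 CPM in MO1, MO2 and MO3 and 4061, 3617 and 2379 CPM in MC1, MC2 and MC3, so that MO2 and MC3, the libraries with the most Fos and Egr1, had the least. The sum rests on a few abundant chaperones, such as Hspa8 at 2055, 1008 and 1808 CPM against 2016, 1708 and 977. The stress-inducible Hspa1a and Hspa1b were highest in MC3, at 3.03 and 56.1 CPM. The smallest p-values were those of Hsph1 (log2 fold change -0.52, SE 0.23, adjusted p = 0.387), Dnaja1 (-0.29, SE 0.14, adjusted p = 0.45) and Hspa1a (0.71, SE 0.38, adjusted p = 0.483). With the term for MO2 and MC3, 4 of the 9 were called lower in co-culture and 0 higher, where 16.4% of all genes were called lower and 13.9% higher. Without these libraries 0 of the 9 were called.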
